A study of Mus musculus with 2 samples.

Results

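The genes described here were the enzymes, granule proteins and transcription factors that define the acinar cell of the exocrine pancreas, 37 of the 32285 genes in the files. They were chosen by symbol. Of them, 32 encoded secreted or zymogen granule proteins: 7 trypsinogens, 3 chymotrypsinogens, 4 elastases, 2 carboxypeptidases, 6 lipid-digesting proteins and 10 other secreted proteins. The remaining members were Erp27, which encodes a protein of the endoplasmic reticulum, and the 4 acinar transcription factors Bhlha15, Ptf1a, Rbpjl and Nr5a2. The question put to the data was how the secreted enzyme RNAs and the factor RNAs differed between 2 tumor libraries, in the cells and outside them.

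The data were 1 single-cell RNA sequencing library of a pancreatic tumor from a flox mouse and 1 from a mouse labelled MCT1-KO. KPC cells, a mouse pancreatic cancer line, had been injected into the pancreas of MCT1 fl/fl mice. In the MCT1-KO model MCT1, the lactate importer encoded by Slc16a1, is deleted by a tamoxifen-inducible Cre under the Col1a2 promoter, which is active in pancreatic stellate cells (PSCs) and other fibroblasts. The study describes injections of tamoxifen, and for its mouse model tamoxifen or corn oil, before KPC cells were implanted, but the labels do not say whether the flox mouse carried the Cre, which injections it received or whether a library pooled several tumors. In PSC-like cells, Slc16a1 was no lower in MCT1-KO than in flox: it had 56 UMIs (unique molecular identifiers, tags that mark single captured RNA molecules) in flox and 113 in MCT1-KO, or 25.2 and 35.7 UMIs of the gene per 1000000 UMIs (CPM), a ratio of 1.42 with a 95% interval of 1.02 to 1.99. In near-empty barcodes, described below, Slc16a1 stood at 21.4 CPM in flox and 21.0 CPM (19.2 to 22.9) in MCT1-KO. The interval of the flox PSC-like level (19.0 to 32.7) held the near-empty level. That of the MCT1-KO PSC-like level (29.4 to 42.9, UMIs in 92 of 419 cells) lay above it. Over all kept cells the Slc16a1 ratio was 1.44 (1.36 to 1.53), so that a higher level in MCT1-KO was not particular to PSC-like cells. The paper reports less MCT1 in PSCs of its knockout mice by Western blot, PCR and immunofluorescence. It also reports lower MCT1 in PSCs in its own plots of the single-cell data. The counts given here did not show the deletion, and whether it had taken place in this library was not tested. MCT1-KO below means the library labelled so.

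The flox library held 177334432 UMIs and the MCT1-KO library 151118092. Kept cells, with at least 500 UMIs, 200 to 5000 genes and at most 8% mitochondrial UMIs, numbered 8739 in flox (median 4069 UMIs) and 11689 in MCT1-KO (median 3706 UMIs). Barcodes of 10 to 100 UMIs hold too little RNA to be read as cells and are called near-empty here: 1179143 in flox with 31129065 UMIs, and 1160995 in MCT1-KO with 25290826 UMIs. Clusters found without the acinar genes were named by markers of other cell types, which left 45.7% of flox and 56.2% of MCT1-KO cells unnamed. The 2 lists of kept cells shared 59 barcodes. With 1 library per group there was no test between conditions, and all intervals are 95% intervals for counting error only.

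Acinar cells make most of the protein of the pancreas. They store inactive zymogens in granules and release them into the duct, and in the gut trypsin activates the others. The zymogen RNAs are among the most abundant RNAs of any cell, whereas transcription factor RNAs are scarce. Ptf1a and Rbpjl form the PTF1 complex that binds enzyme gene promoters, Nr5a2 is a nuclear receptor that acts with it, and Bhlha15 (Mist1) is a basic helix-loop-helix factor that sets up the secretory apparatus in acinar and other secretory cells such as plasma cells.

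The promoters of 4 members are shown, since the enzyme genes moved together and these factors bind short motifs at such genes. They are the promoters of Ctrb1, Prss2 and Cela3b, which had the most UMIs of the chymotrypsinogens, trypsinogens and elastases, and that of Rbpjl, a factor of which few UMIs were found. Each runs from 250 bases before to 50 bases after the start on GRCm38.p6, from RefSeq, 5′ to 3′ on the gene's own strand. Capitals mark CACCTG (a form of the E-box), and they mark TTTCCC (part of PTF1 sites) or the site type of Nr5a2, CAAGGTCA, each also as its reverse complement.
Ctrb1 (chr8:111690961-111691260, minus strand): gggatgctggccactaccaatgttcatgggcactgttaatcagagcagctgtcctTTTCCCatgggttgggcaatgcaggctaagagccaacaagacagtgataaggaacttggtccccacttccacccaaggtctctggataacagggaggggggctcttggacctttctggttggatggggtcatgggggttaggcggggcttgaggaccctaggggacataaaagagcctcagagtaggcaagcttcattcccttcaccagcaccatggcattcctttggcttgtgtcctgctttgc
Prss2 (chr6:41521526-41521825, plus strand): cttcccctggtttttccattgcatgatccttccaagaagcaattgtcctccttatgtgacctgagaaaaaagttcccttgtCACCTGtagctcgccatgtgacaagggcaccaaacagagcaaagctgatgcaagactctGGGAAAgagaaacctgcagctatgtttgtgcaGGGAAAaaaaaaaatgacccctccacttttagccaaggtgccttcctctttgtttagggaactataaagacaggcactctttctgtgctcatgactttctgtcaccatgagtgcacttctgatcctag
Cela3b (chr4:137430471-137430770, minus strand): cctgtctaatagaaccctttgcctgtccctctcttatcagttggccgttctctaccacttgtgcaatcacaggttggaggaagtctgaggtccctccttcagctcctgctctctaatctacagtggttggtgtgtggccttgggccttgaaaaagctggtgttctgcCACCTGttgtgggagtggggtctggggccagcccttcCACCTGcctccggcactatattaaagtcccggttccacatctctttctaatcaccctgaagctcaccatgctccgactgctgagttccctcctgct
Rbpjl (chr2:164402944-164403243, plus strand): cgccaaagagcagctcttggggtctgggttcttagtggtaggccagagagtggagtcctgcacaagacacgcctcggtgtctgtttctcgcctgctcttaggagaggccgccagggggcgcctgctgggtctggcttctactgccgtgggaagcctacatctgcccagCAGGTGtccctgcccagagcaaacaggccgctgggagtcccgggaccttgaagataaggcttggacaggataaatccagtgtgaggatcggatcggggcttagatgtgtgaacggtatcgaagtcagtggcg

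Promoters were found for 29 of the 37 members, with 31 promoters in all, and these were set against 32851 RefSeq promoters of the same length. CANNTG, the E-box of basic helix-loop-helix factors, was in 80.6% of member promoters and 72.3% of all promoters, read on both strands. Its form CACCTG was in 58.1% (18 of 31) against 20.2% of all, at a mean of 0.903 against 0.235 copies per promoter. TTTCCC, found in sites of the PTF1 complex, was in 32.3% against 25.2%, and CAAGGTCA, a nuclear receptor half-site of the Nr5a2 type, was in 6.45% (Cel and Klk1) against 1.56%. The CACCTG copies of the Cela3b promoter stood 83 and 46 bases before the start, those of Prss2 and Rbpjl 169 and 82 bases before it, and the Ctrb1 promoter held none. A match is only a run of letters, and the members include families of related genes whose promoters are not independent.

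In near-empty barcodes the enzyme RNAs were far higher in MCT1-KO. The 32 secreted genes together took 407 CPM in flox and 21546 CPM in MCT1-KO, a ratio of 53.0 (52.0 to 53.9). That was 0.0107 secreted UMIs per near-empty barcode in flox and 0.469 in MCT1-KO. Every role group was higher in MCT1-KO: the ratio of the summed levels was 54.7 for trypsinogens, 46.6 for chymotrypsinogens, 62.6 for elastases, 53.7 for carboxypeptidases, 57.4 for the lipid-digesting group and 49.0 for the other secreted proteins. The size of the ratio depended on the range of barcodes: it was 30.3 (29.6 to 31.0) in those of 10 to 50 UMIs and 142 (138 to 146) in those of 51 to 100. Of all genes with at least 50 UMIs in near-empty barcodes, 2.00% (259 of 12925) were at least 2-fold higher in MCT1-KO, with a median ratio of 0.972. Of the members, 29 had enough UMIs and 29 of these were past 2-fold, with a median ratio of 49.5. The minimum was set on both libraries together, and Prss3, Try10, Ctrc, Pnliprp2, Gp2, Serpini2 and Erp27 reached it only through MCT1-KO, so that the filter itself bears on this count. The 8 members that did not reach 50 UMIs were Prss1, Cela2a, Cela3a, Cuzd1 and the 4 factors.

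**Figure D1:**
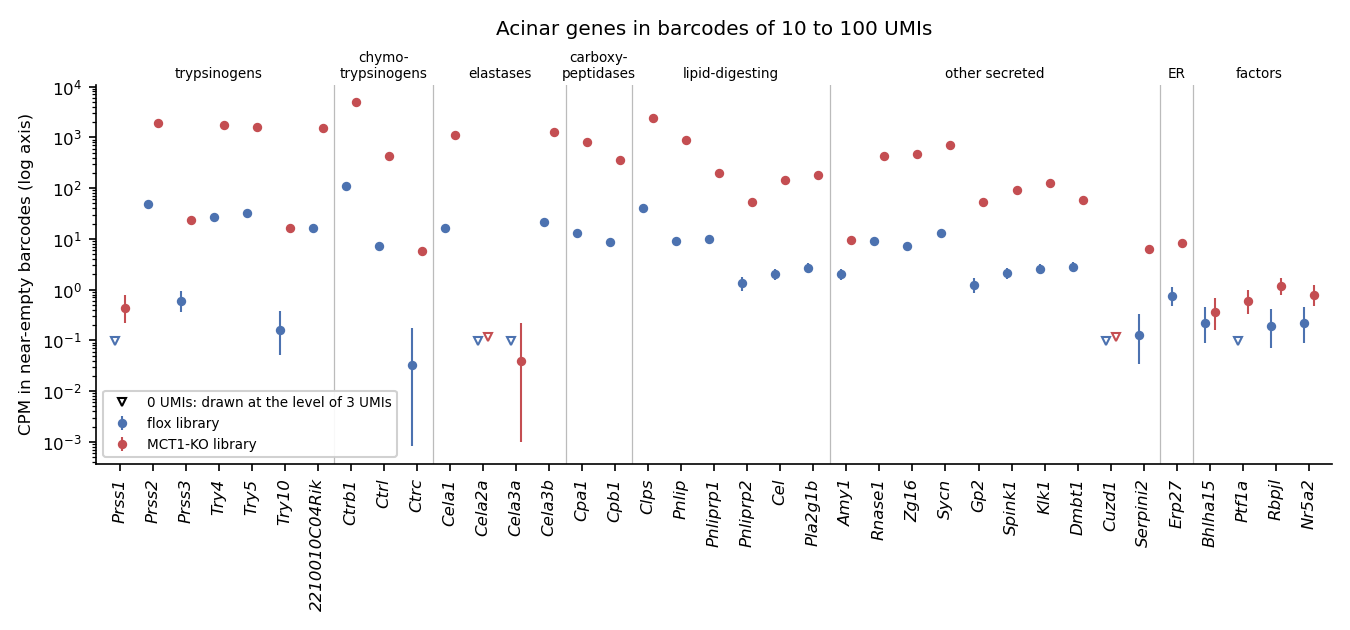
Level of each of the 37 acinar genes in near-empty barcodes (vertical axis, CPM, log scale), ordered by role, with the flox library in blue and the MCT1-KO library in red. Lines are 95% counting intervals and open triangles are genes with 0 UMIs, drawn at the level of 3 UMIs. The secreted genes of the MCT1-KO library lie above those of flox, except Cela2a, Cela3a and Cuzd1, which had 0 or 1 UMI per library. The 4 factors at the right lie near the floor in both.

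Trypsinogens are the precursors of trypsin, and in the mouse most of them lie in a cluster on chromosome 6. Prss2, the anionic trypsinogen (chr6:41521787-41525079, plus strand, GRCm38), stood at 48.3 CPM in near-empty barcodes of flox and at 1890.3 CPM in MCT1-KO, a ratio of 39.1 (37.2 to 41.2). Try5 (chr6:41311233-41316841, minus strand) stood at 32.9 and 1626 CPM, a ratio of 49.5 (46.5 to 52.7). Try4 reached 27.0 and 1745 CPM and 2210010C04Rik 16.4 and 1559 CPM. The ratio was 64.7 (60.4 to 69.3) for Try4 and between 87.0 and 104 for 2210010C04Rik, so that the 4 abundant trypsinogens stood closer to each other in MCT1-KO than in flox. Prss3 and Try10 were much scarcer than Prss2 in both libraries, at 0.610 and 0.161 CPM in flox and 23.8 and 16.0 CPM in MCT1-KO. Prss1 had 0 UMIs in flox and 11 in MCT1-KO, so that with 3 UMIs taken as the floor the level was at least 4.51-fold higher (lower limit 3.09). The longest coding transcripts of Try4 and Try5 were 97.1% identical over 801 bases and those of Prss1 and Prss3 96.1% over 752, so that the division of reads among the trypsinogens is uncertain.

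Ctrb1, chymotrypsinogen B (chr8:111686519-111691010, minus strand), was the most abundant member, at 109 CPM in flox and 4989 CPM in MCT1-KO, a ratio of 45.9 (44.3 to 47.5). Ctrl, a chymotrypsin-like protease, stood at 7.29 and 421 CPM, a ratio of 57.7 (50.6 to 66.1). Ctrc, chymotrypsin C, which degrades trypsinogen, had 1 UMI in flox and 145 in MCT1-KO, a ratio of 178 with an interval of 31.5 to 7097. All 3 chymotrypsinogens were thus higher in MCT1-KO, the last with almost no precision. Among the elastases, Cela3b stood at 21.0 and 1249.8 CPM (ratio 59.4, 55.0 to 64.3) and Cela1 at 16.4 and 1092 CPM (ratio 66.7, 61.1 to 72.9). Cela2a had no UMI in either library, and Cela3a had 1 UMI in MCT1-KO and none in flox. In GENCODE vM21 Cela2a (chr4:141814962-141826160, minus strand) lies within the annotated span of Ctrc on the same strand, so that the counts of both genes are uncertain.

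The carboxypeptidases, which trim peptides from the C-terminal end, followed the same pattern: Cpa1 stood at 12.9 CPM in flox and 795 CPM in MCT1-KO (ratio 61.7, 55.9 to 68.3) and Cpb1 at 8.48 and 351 CPM (ratio 41.4, 36.6 to 47.0). Clps, colipase, the cofactor that anchors pancreatic lipase to fat droplets, stood at 41.4 and 2359.8 CPM, a ratio of 56.9 (53.9 to 60.2). The lipase itself, Pnlip, stood at 9.12 and 899 CPM, a ratio of 98.6 (87.7 to 111). These neighbours in function differed in ratio by more than their counting error. The lipase-related Pnliprp1 had the lowest ratio of the group, 19.2 (17.2 to 21.6), with 10.1 CPM in flox and 195 CPM in MCT1-KO. Pnliprp2, the bile-salt-activated lipase Cel and the phospholipase Pla2g1b had ratios of 39.4, 70.6 and 67.4.

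Of the other secreted proteins, Sycn (syncollin, a zymogen granule membrane protein) stood at 12.8 CPM in flox and 706 CPM in MCT1-KO (ratio 54.9, 49.7 to 60.8), and the granule lectin Zg16 at 7.10 and 464 CPM (ratio 65.4). Rnase1, Gp2, the trypsin inhibitor Spink1, the kallikrein Klk1 and the serpin Serpini2 had ratios of 43.2 to 49.4. Dmbt1, a mucosal glycoprotein that duct cells make as well, had a lower ratio of 20.6 (16.6 to 25.9). Amy1, the amylase of salivary gland and liver, had the lowest ratio of the 28 secreted genes with enough UMIs, with 63 UMIs in flox and 241 in MCT1-KO, or 4.71 (3.55 to 6.32). Cuzd1 had no UMI in near-empty barcodes or kept cells. Erp27, which assists folding inside the endoplasmic reticulum, stood at 0.739 CPM in flox and 8.42 CPM in MCT1-KO, a ratio of 11.4 (7.40 to 18.4), well below that of the secreted sum.

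The transcription factors were scarce in near-empty barcodes. Over all 4, flox had 20 UMIs and MCT1-KO 74, a ratio of 4.55 (2.75 to 7.88), against 53.0 for the secreted genes. In barcodes of 10 to 50 UMIs the factor ratio was 2.51 (1.38 to 4.80) and in those of 51 to 100 it was 18.7 (6.68 to 72.6). Rbpjl had 6 and 30 UMIs (ratio 6.15, 2.52 to 18.1), and Nr5a2 had 7 and 20 (ratio 3.52, 1.43 to 9.84). Ptf1a had 0 and 15 UMIs, and with 3 UMIs as the floor its level was at least 6.15-fold higher (lower limit 4.41). For Bhlha15 the 7 and 9 UMIs gave a ratio of 1.58, with a lower limit of 0.524, so that no difference was detectable at this depth. There were 633 secreted UMIs for each factor UMI in flox (409.8 to 1037) and 7364 in MCT1-KO (5866 to 9378), and these intervals did not overlap. Bhlha15 and Nr5a2, with 7 UMIs each of the 20 in flox, were also found in plasma-like and endothelial-like cells, described below. The factor sums and these ratios therefore need not be acinar RNA alone, and the part of other cells was not tested. Fewer acinar cells and less RNA per acinar cell cannot be told apart in near-empty barcodes. Of these barcodes, 17 in flox and 2368 in MCT1-KO had at least 20% of their UMIs in secreted genes. They held 0.798% and 6.35% of the secreted UMIs of this range, and whether they held parts of acinar cells was not tested.

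Of 9 other genes of the acinar cell in the files, 6 had enough UMIs in near-empty barcodes. Of these, 5 were at least 2-fold higher in MCT1-KO, against 2.00% of all genes. Aqp12 and Pdia2, among others, reached the minimum only through MCT1-KO, so that the filter itself bears on this count and on the median. The median ratio of the 6 was 36.6. The water channel Aqp12 had 3 and 152 UMIs (ratio 62.4, 20.9 to 306), and the disulfide isomerase Pdia2 stood at 0.707 and 12.2 CPM (ratio 17.2, 11.2 to 27.9). Gamt, an enzyme of creatine synthesis that many cell types express, stood at 54.5 and 42.3 CPM (ratio 0.775). Amy2a5, a pancreatic amylase gene with near-identical copies, had only 0 and 5 UMIs. The cholecystokinin receptor Cckar, the only acinar receptor with enough UMIs, had 2 and 49 UMIs and so reached the minimum almost wholly through MCT1-KO. Of 8 other pancreatic transcription factors 6 had enough UMIs, and none of these reached a 2-fold difference, with a median ratio of 0.876. The nuclear receptor Nr0b2, which had too few UMIs for that count, had 0 and 16 UMIs, at least 6.56-fold higher in MCT1-KO than the floor of 3 counts in flox. In kept cells Nr0b2 had 2 and 25 UMIs (ratio 9.38, 2.34 to 81.7). None of 10 genes of the secretory pathway and protein folding reached a 2-fold difference, with a median ratio of 0.799. Since only 2.00% of all genes were at least 2-fold higher, these counts do not set either list apart from other genes. The chaperone Hspa5 stood at 617 and 314 CPM (ratio 0.509). It stood at 1068 and 608 CPM in kept cells of all kinds, so that its RNA was not particular to acinar cells.

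Markers of other cell types were counted in the same near-empty barcodes. Those of PSCs (11 of 11 with UMIs) had summed levels of 1924 CPM in flox and 1429 CPM in MCT1-KO, and those of myeloid cells (11 of 11) 14879 and 11241 CPM. Ductal markers (11 of 11) stood at 1422 and 1723 CPM. The sums of these 3 lists thus differed by far less than the secreted sum. The sum of the 9 other acinar genes stood at 58.1 CPM in flox and 201 CPM in MCT1-KO (ratio 3.45, 3.27 to 3.64), and Gamt made up 1698 of their 1810 UMIs in flox. For neutrophil, dendritic, T/NK, B, plasma and endothelial markers the ratios ran from 0.499 (T/NK) to 1.36 (B). The 6 adipocyte markers stood at 59.9 and 219 CPM, a ratio of 3.65 (3.47 to 3.85). Fabp4 made up 1821 of their 1865 UMIs in flox and 3348 of 5536 in MCT1-KO. All 5 with enough UMIs were past 2-fold, against 2.00% of all genes. Of these, Cfd, Car3, Adipoq and Cidec reached the minimum only through MCT1-KO, so that the filter itself bears on this count. Adipoq and Cidec were at 0 UMIs in flox and at 93 and 62 in MCT1-KO. Islet markers (8 and 9 of 9 with UMIs) had 155 and 529 UMIs, or 4.98 and 20.9 CPM, with a ratio between 3.51 and 5.06. Marker genes of fat and islets, which lie in or beside the normal pancreas, thus had higher summed levels in the same library. The part of such tissue in the difference of the acinar genes was not tested.

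In kept cells the difference was smaller. The secreted genes took 474 CPM in flox and 3359 CPM in MCT1-KO, a ratio of 7.09 (7.01 to 7.18). Of all genes with at least 50 UMIs in kept cells, 2.83% (438 of 15465) were at least 2-fold higher in MCT1-KO, with a median ratio of 1.00. Of the members 30 had enough UMIs, 29 of them were past 2-fold, and the median ratio of the 30 was 6.67. Prss3, Try10, Ctrc, Serpini2 and Nr5a2 reached the minimum only through MCT1-KO. The secreted members ranged from 2.03 for Amy1 to 16.1 for Pnlip. Without the barcodes in which secreted genes made up 20% or more of the UMIs, described below, the sums were 179 and 2082 CPM and the ratio 11.6 (11.4 to 11.8). Of the same 30 members, 28 were then past 2-fold, since Amy1 came to 1.76 (1.47 to 2.12). With all cells but no upper limit on genes, the ratio was 10.7 (10.6 to 10.8).

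By role, Prss2 stood at 57.5 CPM in kept cells of flox and 260.1 CPM in MCT1-KO (ratio 4.53, 4.37 to 4.69), and Try5 at 42.4 and 258 CPM (ratio 6.09). Ctrb1 reached 138 and 1003 CPM (ratio 7.28, 7.12 to 7.45) and Ctrl 7.41 and 79.5 CPM (ratio 10.7). As sums, the trypsinogens had a ratio of 6.68 and the chymotrypsinogens one of 7.46. Cela3b and Cela1 had ratios of 8.49 and 9.80, and Cpa1 and Cpb1 had 10.4 and 8.57. Clps (4.64, 4.45 to 4.83) and Pnlip (16.1, 14.6 to 17.7) again stood far apart, as did Sycn (5.55) and Zg16 (9.54). In flox 2418 of the 3514 Prss2 UMIs and 6063 of the 8420 Ctrb1 UMIs lay in the 14 barcodes at 20% or more. Without the barcodes at 20% or more of both libraries the ratio was 9.75 for Prss2, 13.1 for Try5, 14.6 for Ctrb1, 17.6 for Ctrl, 13.3 for the trypsinogens and 14.7 for the chymotrypsinogens. The same step gave 14.2 for Cela3b, 16.4 for Cpa1, 15.1 for Cpb1, 24.4 for Pnlip, 9.72 for Sycn and 16.0 for Zg16, while Cela1 (9.48) and Clps (5.45) moved less. Erp27 had 57 and 192 UMIs, a ratio of 2.53 (1.87 to 3.46). The factors did not differ detectably: their sum was 71 UMIs in flox and 99 in MCT1-KO, a ratio of 1.05 (0.764 to 1.44). Nr5a2, the only factor with at least 50 UMIs, had 43 and 60 UMIs (ratio 1.05, 0.696 to 1.59), Rbpjl 21 and 23 (ratio 0.822, 0.435 to 1.56), Bhlha15 7 and 13, and Ptf1a 0 and 3. Of the Nr5a2 UMIs 21 and 13 lay in endothelial-like cells, and of those of Bhlha15 5 and 7 in plasma-like cells. The factor sums of kept cells are thus in part not acinar RNA.

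**Figure D2:**
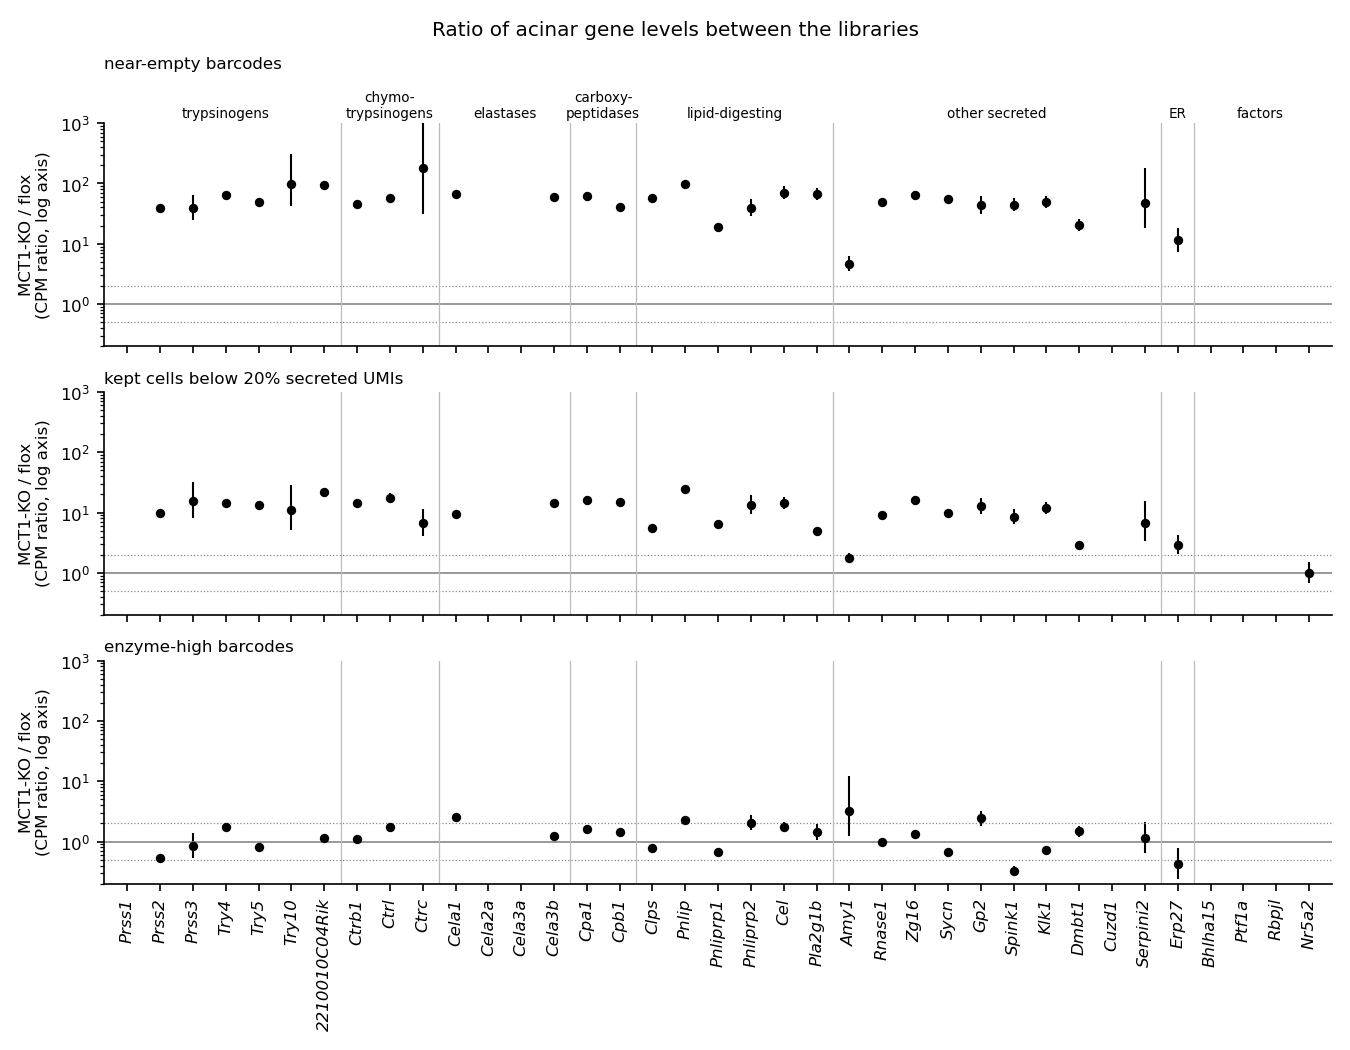
Ratio of the CPM of each acinar gene in MCT1-KO to that in flox (vertical axis, log scale) in near-empty barcodes, in kept cells with under 20% secreted UMIs and in enzyme-high barcodes, for genes whose UMIs summed to 50 or more. Lines are 95% counting intervals (that of Ctrc in the top panel runs past the axis to 7097), the solid line marks a ratio of 1 and the dotted lines 2-fold; the median ratio is 49.5 in the top panel and 1.24 in the bottom panel.

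The higher level in MCT1-KO was found in all 9 named cell classes. At least 1 secreted UMI was found in 2799 of 8739 flox cells (31.1% to 33.0%) and in 11488 of 11689 MCT1-KO cells (98.0% to 98.5%). After each cell was thinned to 1000 UMIs, which left out 1402 and 2503 shallower cells, the shares were 9.73% and 70.5%. In thinned B-like cells, which should lack these genes, they were 6.45% and 97.3%, in thinned T/NK-like cells 8.52% and 80.8%, and in thinned ductal-like cells 4.77% and 46.3%. Before thinning, B-like cells had medians of 1725 and 1270.0 UMIs. Cells of classes that should lack these genes thus held secreted UMIs, and no expression was read from these shares. The secreted sum in PSC-like cells was 123 CPM in flox and 2536 CPM in MCT1-KO (ratio 20.6, 18.2 to 23.3). Without 1 of the 419 MCT1-KO cells, in which secreted genes took 27.7% of the UMIs, the PSC-like ratio was 14.6 (13.0 to 16.6). In myeloid-like cells it was 145 and 3097 CPM (ratio 21.4, 20.5 to 22.3), in T/NK-like cells 156 and 3372 CPM (ratio 21.6) and in ductal-like cells 57.3 and 1309 CPM (ratio 22.8, 20.8 to 25.1). Over the 7 classes with at least 50 cells in each library the median ratio was 21.6, from 14.8 in dendritic-like to 32.7 in neutrophil-like cells. Without the 8% of cells with the highest doublet score, the dendritic-like ratio was 28.9, and the ratios ran from 18.9 in T/NK-like to 29.0 in PSC-like cells. With all variable genes in the clustering, the ductal-like ratio was 5.01. That class also took in a cluster of 37 and 64 cells led by Tff1, Gkn1 and Tff2, so that its cells were not the same. In the other unnamed clusters, with 3940 and 6397 cells, the sum was 223 and 1965 CPM, levels within those of the named classes. Their ratio, 8.82 (8.60 to 9.05), lay below the 14.8 to 32.7 of the 7 named classes.

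Within a library the secreted genes took a smaller part of the UMIs of every named class than of the near-empty barcodes. In flox the class level was 0.0987 (plasma-like) to 0.611 (neutrophil-like) times the near-empty level, and in MCT1-KO 0.0607 (ductal-like) to 0.377 (neutrophil-like) times. The upper limit was below 1 in 9 of 9 classes in each library. Neutrophil-like cells were shallow, with medians of 1470.0 and 1084 UMIs, and ductal-like cells deep, with 21943 and 20341. The order was not that of depth in either library. Endothelial-like cells (medians 4972 and 2013 UMIs) stood at 0.186 and 0.0934 times the near-empty level. The deeper myeloid-like cells (5929 and 4880.5 UMIs) stood at 0.356 and 0.144 times. Plasma-like cells of flox, the lowest there (median 9300.0 UMIs), rested on 14 secreted UMIs. Their interval, 0.0540 to 0.166, held the ductal-like value of flox, 0.141. In UMIs per cell the order differed, since a ductal-like cell of MCT1-KO held a mean of 25.7 secreted UMIs and a neutrophil-like cell 10.5.

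**Figure D3:**
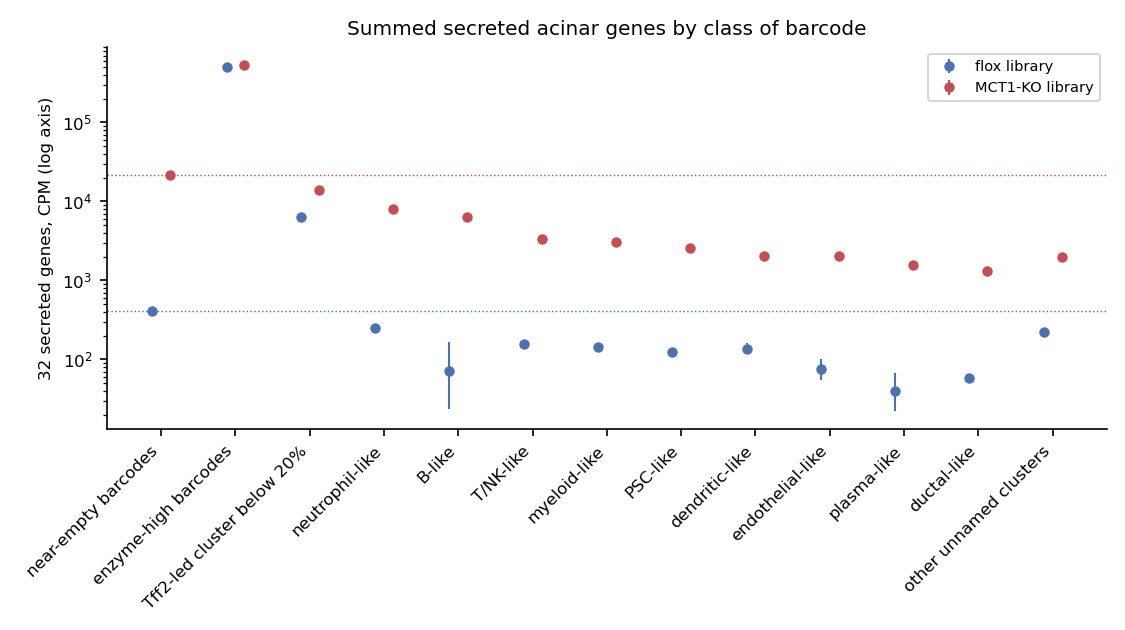
Summed level of the 32 secreted acinar genes (vertical axis, CPM, log scale) in near-empty barcodes, enzyme-high barcodes and each class of kept cells, flox in blue and MCT1-KO in red, with 95% counting intervals; dotted lines mark the near-empty level of each library. Each named class lies below the near-empty level of its own library, while the enzyme-high barcodes lie above it by definition.

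Member by member, levels in each named class were set against the near-empty barcodes. A level at least 2 times as high in both libraries, with its interval above 1, was found for 2 of 333 pairs of a gene and a class. Both were transcription factors. The share of such pairs over all genes is not given here, so that this count cannot be called low or high for the members. Nr5a2 in endothelial-like cells had 21 UMIs in 16 of 96 flox cells and 13 UMIs in 8 of 126 MCT1-KO cells, or 33.8 and 29.8 CPM. That was 150.1 times the near-empty level in flox and 37.7 times (17.2 to 79.7) in MCT1-KO, and the libraries did not differ detectably (ratio 0.884, 0.407 to 1.85). Bhlha15 in plasma-like cells had 5 UMIs in 4 of 35 flox cells and 7 UMIs in 6 of 59 MCT1-KO cells, or 14.3 and 14.9 CPM, 63.8 and 41.9 times (13.3 to 127) the near-empty level. No secreted member passed this rule in a named class. The near-empty level of the secreted genes in MCT1-KO was itself high, at 21546 CPM in sum. A secreted gene expressed at a low level could therefore not pass, and no lack of expression was read from this. In flox alone, 4 other pairs had an interval above 1, and 3 of them rested on 3 to 7 UMIs: Ctrc in dendritic-like cells (3 UMIs, 79.4 times, lower limit 6.38), Rbpjl in PSC-like cells (3 UMIs, 7.01 times, lower limit 1.13) and Cel in neutrophil-like cells (7 UMIs, 2.64 times, lower limit 1.02). The last was Cela1 in myeloid-like cells, above the near-empty level, with 316 UMIs in 271 of 2522 cells and 20.4 CPM against 16.4 CPM, 1.24 times (lower limit 1.08). In MCT1-KO, Cela1 in these cells stood at 184 CPM against 1092 CPM. These 4 pairs were singled out after their values were seen.

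No cluster could be named acinar-like from markers outside the members. The acinar RNA of kept cells was therefore described in barcodes with at least 20% of their UMIs in the 32 secreted genes, called enzyme-high here. They are a range of a score and not a cell type, and their secreted level is set by the cut. There were 14 in flox, 0.160% of kept cells (0.0876 to 0.269), and 115 in MCT1-KO, 0.984% (0.813 to 1.18), and the libraries shared none of these barcodes. They held 62.1% of all secreted UMIs of kept cells in flox and 38.2% in MCT1-KO. Their median share of secreted UMIs was 47.5% (31.4 to 61.0) in flox and 56.5% (21.1 to 85.3) in MCT1-KO. The nearest cells below the cut had 18.6% and 19.0%, and 0 and 10 enzyme-high barcodes lay between 15% and 25%. Enzyme-high barcodes were shallow, with medians of 1242 and 1195 UMIs and of 312 and 280.0 genes, and 3 and 70 further barcodes with as high a share were lost to the limit of 200 genes. Between 5% and 20% there were 4 cells in flox and 125 in MCT1-KO. When the members were let into the clustering, an acinar-like cluster appeared, with 43 cells in flox (0.492%) and 455 in MCT1-KO (3.89%), and 14 and 111 of the enzyme-high barcodes were in it.

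**Figure D4:**
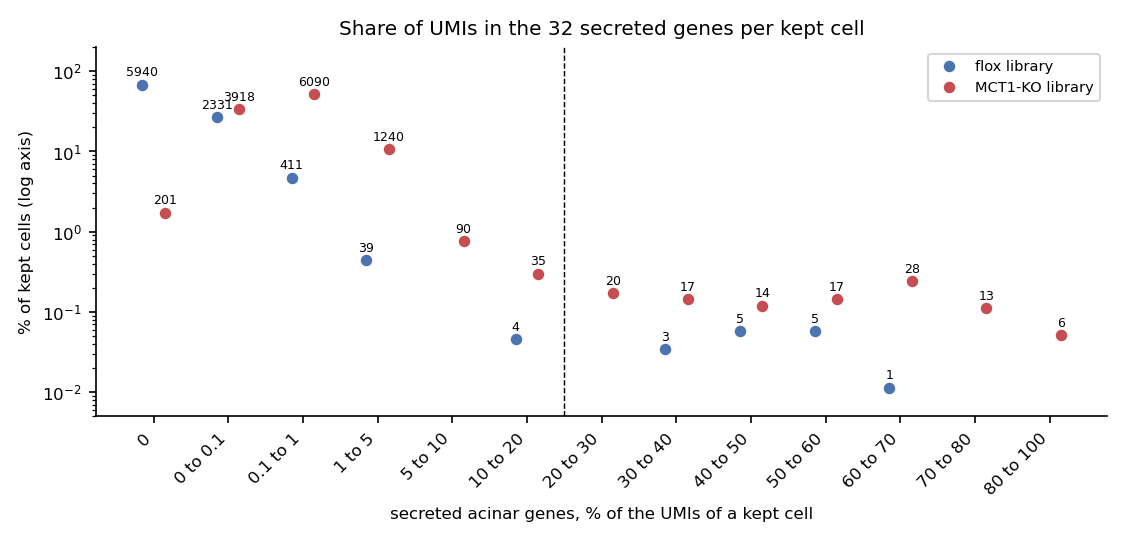
Percent of kept cells (vertical axis, log scale) in each range of the share of UMIs taken by the 32 secreted genes (horizontal axis, % of the UMIs of a cell), flox in blue and MCT1-KO in red, with the number of cells over each point. The dashed line is the 20% cut, with 14 flox and 115 MCT1-KO cells to its right; most flox cells have a share of 0 and most MCT1-KO cells a share above 0.

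Acinar genes that played no part in the cut were also high in the enzyme-high barcodes. Of the 9 other acinar genes, 5 had a UMI there in flox and 9 in MCT1-KO. Pdia2 stood at 450.4 and 625 CPM, against 0.523 and 2.94 CPM in all kept cells, and Aqp12 at 113 and 196 CPM, against 0.164 and 1.09 CPM. Erp27 stood at 507 and 217 CPM, with 18 and 42 UMIs. Among the factors, Rbpjl had 2 and 3 UMIs, Nr5a2 0 and 2, Ptf1a 0 and 1 and Bhlha15 none. For each factor UMI there were 9002 secreted UMIs in flox (2492 to 74338) and 17414 in MCT1-KO (8000.2 to 47452), and these intervals overlapped. Markers of other cells were present as well: myeloid markers (8 and 11 of 11 with a UMI) stood at 1829.9 and 5140.5 CPM, below their 15275 and 9117 CPM in all kept cells, ductal markers (4 and 10 of 11) at 338 and 1121 CPM and PSC markers (5 and 9 of 11) at 253 and 971 CPM. The T/NK, B, dendritic, endothelial and islet lists had 0 to 3 UMIs each, and the neutrophil list 1 and 167. In flox, Epcam, Krt19, Col1a2 and Pdgfra were at 0 UMIs in these barcodes. The part of RNA from other cells in these levels was not tested. The doublet score placed 0 and 1 of them among the 8% of cells with the highest score.

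Between enzyme-high barcodes of the libraries the members differed little in sum and more in mix. The secreted sum was 506855 CPM in flox and 539786 CPM in MCT1-KO, which the cut sets. In the acinar-like cluster found with the members the direction turned, with a ratio of 0.338 (0.334 to 0.343). Of 249 genes with enough UMIs in enzyme-high barcodes, 16.5% (41) were at least 2-fold higher in MCT1-KO and 2.81% (7) at least 2-fold lower. Of 27 members, 5 were past 2-fold higher: Cela1 (2.57), Pnlip (2.28), Pnliprp2 (2.05), Gp2 (2.43) and Amy1 (3.26). That share was near the share over all genes. Amy1 (4 and 71 UMIs), Prss3 and Serpini2 reached the minimum only through MCT1-KO. The enzyme-high barcodes held 35521 UMIs in flox and 193562 in MCT1-KO, so that the filter itself bears on these counts. Spink1 stood at 4701 and 1539.6 CPM (ratio 0.327, 0.270 to 0.398) and Erp27 at a ratio of 0.428 (0.241 to 0.790), and these 2 were past 2-fold lower. Prss2 was at 68072 and 36056 CPM (ratio 0.530), whereas Try4 was at 17229 and 30244 CPM (ratio 1.76), and Ctrb1 hardly differed, at 170688 and 186566 CPM (ratio 1.09, 1.06 to 1.12). The 14 barcodes of flox came from 1 library, and the spread between animals is unknown.

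The mix of secreted RNAs was also compared within libraries. Trypsinogens took 30.8% of the secreted UMIs of near-empty barcodes in flox and 31.8% in MCT1-KO, chymotrypsinogens 28.5% and 25.1%, elastases 9.20% and 10.9%, carboxypeptidases 5.25% and 5.32%, the lipid-digesting group 16.4% and 17.8% and the others 9.80% and 9.07%. Single genes differed more in their share of these UMIs, beyond counting error. Amy1 took 0.498% in flox and 0.0442% in MCT1-KO, Pnliprp1 2.49% and 0.904%, and Dmbt1 0.695% and 0.270%, while Pnlip took 2.24% and 4.17% and 2210010C04Rik 4.04% and 7.24%. In enzyme-high barcodes trypsinogens took 32.4% and 25.6%, chymotrypsinogens 35.3% and 37.3% and the lipid-digesting group 11.1% and 11.1%. In the named classes pooled they took 27.6% and 29.3%, 21.8% and 30.3%, and 18.8% and 13.9%. In flox elastases took 16.1% in the named classes pooled, against 9.20% in near-empty barcodes. Myeloid-like cells, at 18.8%, held 2245 of the 3905 pooled UMIs. PSC-like (19.0%), T/NK-like (14.9%) and ductal-like cells (13.1%) also lay above the near-empty share, and dendritic-like (4.35%) and neutrophil-like cells (6.77%) below it. In myeloid-like cells of flox Cela1 made up 316 of the 422 elastase UMIs and Cela3b 106. In near-empty barcodes of flox they made up 510 and 655 of 1165. Cela1 made up 37 of 52 in PSC-like, 31 of 55 in T/NK-like and 38 of 61 in ductal-like cells of flox. The B-like, endothelial-like and plasma-like cells of flox had only 5, 47 and 14 secreted UMIs.

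Gene by gene, the share of secreted UMIs in near-empty barcodes over that in enzyme-high barcodes was set against transcript length. In both libraries the 3 genes with the longest coding transcript under 700 bases, Clps, Pla2g1b and Sycn, were above 1. Clps was at 1.87 in flox and 2.69 in MCT1-KO (2.61 to 2.78), Pla2g1b at 2.31 and 2.19, and Sycn at 1.19 and 1.92. These short messages thus took a larger part of the secreted RNA in near-empty barcodes. Genes were counted in a library where they had 50 UMIs in both kinds of barcode. Of those with 1200 bases or more, 4 of 7 were below 1 in flox and 9 of 11 in MCT1-KO, with medians of 0.831 and 0.482. Cpb1 was at 0.751 and 0.428, Dmbt1 at 1.20 and 0.336, and Gp2 at 1.00 and 0.358, whereas Pnlip was above 1 in both, at 1.58 and 1.38. Of the 4 long genes with too few UMIs in flox, Amy1 was there at 22.4 (8.33 to 84.7, from 4 UMIs in enzyme-high barcodes), Gp2 at 1.00, Pnliprp2 at 0.972 and Serpini2 at 0.406. Across genes the log2 values had a Pearson r of -0.199 (Spearman rho -0.239) over 21 genes in flox and -0.720 (-0.712) over 26 genes in MCT1-KO. These are descriptions: genes of a library share its cells and depth, and the flox enzyme-high barcodes are only 14.

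**Figure D5:**
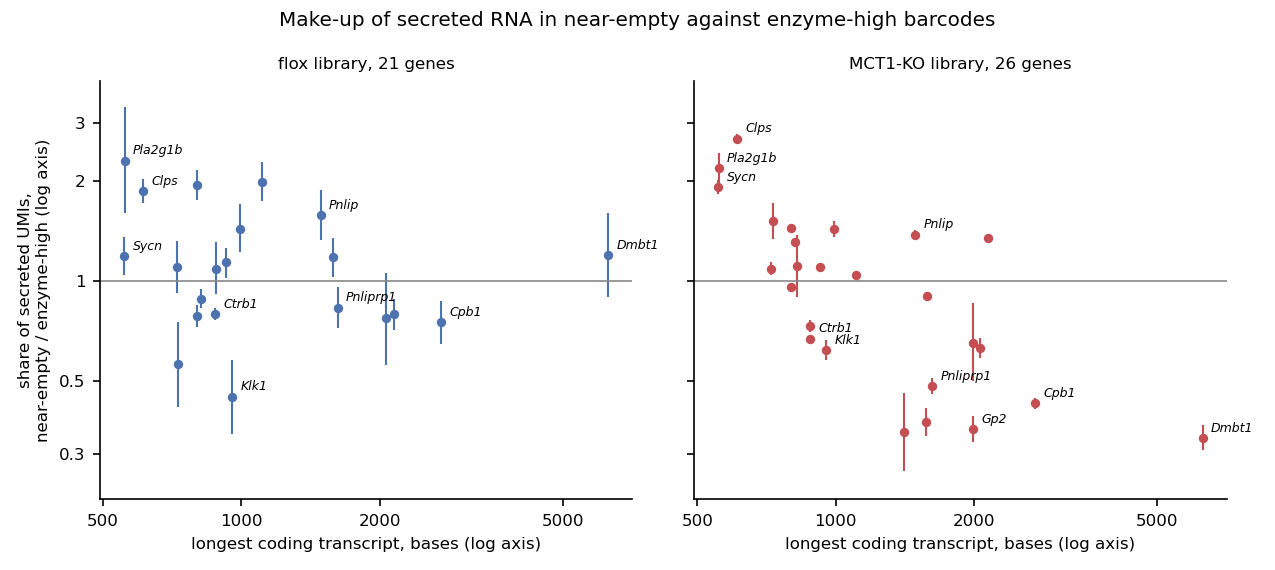
Share of a gene among the secreted UMIs of near-empty barcodes over its share in enzyme-high barcodes (vertical axis, log scale) against the length of its longest coding transcript (horizontal axis, bases, log scale), 21 genes of the flox library at the left and 26 of the MCT1-KO library at the right, with 95% counting intervals. In MCT1-KO the short genes Clps, Pla2g1b and Sycn lie above 1 and the long genes Cpb1, Gp2 and Dmbt1 below it; the flox panel shows a weaker slope.

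Most enzyme-high barcodes, 11 of 14 in flox and 96 of 115 in MCT1-KO, fell in a cluster led by Tff2, a trefoil factor of mucous epithelium, with Epcam, Ambp and Dmbt1 among its 10 leading genes. It stayed unnamed because acinar and ductal markers were high in it. Its cells below the 20% cut, 44 in flox and 73 in MCT1-KO, had the highest summed factor level of all classes, 107 and 141 CPM. Nr5a2 had 20 UMIs in 9 cells of flox (71.6 CPM) and 37 UMIs in 23 cells of MCT1-KO (105 CPM), and Rbpjl had 10 UMIs in 2 cells (35.8 CPM) and 12 in 9 cells (34.0 CPM). These levels were 319 and 132 times the near-empty level for Nr5a2. Of the secreted genes, Ctrc had 13 UMIs in 3 cells of flox (46.6 CPM) and 120 UMIs in 21 cells of MCT1-KO (339.5 CPM). That was 1449.6 and 59.2 times its near-empty level, which rested on 1 UMI in flox. The secreted sum there was 6269 and 13964 CPM, a ratio of 2.23 (2.11 to 2.35). A few cells carried much of it in flox, where 3 of 44 held 5 to 20% secreted UMIs. The median share of a cell was 0.0759% in flox and 0.993% in MCT1-KO, against 0.627% and 1.40% of the summed UMIs. In the whole cluster, with the cells at 20% or more (55 and 169 cells), the sum was 59486 and 195634 CPM, a ratio of 3.29 (3.24 to 3.34). Dmbt1 stood at 666 and 784 CPM, 236 and 13.4 times its near-empty level. Below the cut the lipid-digesting group had 870 and 839 UMIs, 49.7% of the secreted UMIs in flox and 17.0% in MCT1-KO, and in the whole cluster it took 14.7% and 11.4%. In flox 715 of the 870 were Clps, found in 22 of 44 cells at 2561 CPM, against 1768 CPM in MCT1-KO. In the whole cluster there were 599 secreted UMIs for each factor UMI in flox (422 to 882) and 1782 in MCT1-KO (1372 to 2359). Below the cut, which bounds the secreted share, there were 58.3 and 98.7, and these were not compared.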

How the data were processed

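The flox and MCT1-KO libraries came from dissociated tumors. The authors trimmed reads with Fastp, ran SeekOneTools and deposited unnormalized UMI counts by gene and barcode, 1 table per library. The labels name a SeekOne MM microwell kit, while the methods name 10x Genomics or SeekOne DD. The methods name human GRCh38, but the files list mouse Ensembl genes, so the build of the counts is not known. Positions are those of GENCODE vM21 on GRCm38 by Ensembl ID, and promoters those of RefSeq. The submitters' notes name Seurat 4.0.0.

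Cells were kept with at least 500 UMIs, 200 to 5000 genes and at most 8% mitochondrial UMIs. For each library, the UMIs of a gene in a class were added up and set over the total UMIs of that class. Intervals of levels are exact Poisson, those of ratios conditional exact and those of shares Clopper-Pearson, at 95%. A count of 0 was set against a floor of 3 UMIs. Genes needed 50 UMIs over both libraries to be counted as past 2-fold. Clusters (Seurat 5.3.0, R 4.3.3, canonical correlation integration, 2000 variable genes without the members and Reg genes, 20 dimensions, resolution 0.8) were named where at least 3 markers were found in 10% of cells and their median log2 fold over the median cluster was at least 2. These thresholds were set after the clusters had been seen. The intended acinar-like cluster was not found, so a share of at least 20% secreted UMIs, listed as a second definition, was used. Doublets were scored with scanpy 1.11.5 and left in, except in an alternative. Other tools were Biopython 1.88, matplotlib 3.10.9, pandas 2.3.3, scipy 1.17.1 and numpy 2.4.6 under Python 3.11.15.

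The members and lists were chosen with earlier results of these data known. Values were given for the 2 members of each role with the most UMIs in kept cells, for the factors and for each member at least 2 times its near-empty level in a named class of both libraries, with its interval above 1; further members, chosen with their values known, were given by level, ratio or count. The sums and intervals were tested on simulated counts: in near-empty barcodes the intervals held the true ratio for 95.7% of 12945 genes, and 99 of 99 genes simulated 4-fold higher and 6 of 12745 unchanged genes were past 2-fold. In kept cells they held it for 95.4% of 15470 genes. The simulated counts were independent Poisson draws, for which such intervals are built, so that only the computation was checked. UMIs that lie together in few barcodes were not simulated, and the intervals do not cover that spread. Protein sequences and Amy2b were not used here. Values of 1 gene of the list of other acinar genes and 1 of the list of other factors are not reported here.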

Additional observations from a re-analysis of the deposited data

Results flagged for a closer look

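Barcodes with more than 100 and fewer than 500 UMIs entered none of the comparisons above, since they are neither near-empty nor kept. In MCT1-KO the secreted genes took 7.35% of their UMIs (24100 barcodes), and in flox 0.166% (98799 barcodes), above the share of the near-empty barcodes of the same library, 2.15% and 0.0407%. They drew attention as a signal in data that the comparisons did not use. They held 25.5% of all secreted UMIs of the MCT1-KO library and 34.7% of those of flox. Of these barcodes, 3074 in MCT1-KO and 37 in flox had at least 20% of their UMIs in secreted genes, against 186 and 18 among barcodes of 500 UMIs or more.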

How the results depend on the processing

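Of 49 alternatives, 46 planned and 3 chosen after seeing the data, 29 left a value within its interval or its count within 1.5 times, 19 moved it and 1 turned its direction; the causes were not tested. The secreted ratio of near-empty barcodes, 53.0, became 30.3 in barcodes of 10 to 50 UMIs, 142 in those of 51 to 100, 54.1 over the UMIs of other genes only and 55.6 without Ctrb1, and the factor ratio, 4.55, became 2.51 and 18.7 in these ranges. The secreted ratio of kept cells, 7.09, became 6.78 at a minimum of 1000 UMIs, 10.7 without the upper gene limit, 6.89 without the 8% of cells with the highest doublet score and 11.6 without the barcodes at 20% or more (added). The share of enzyme-high barcodes in MCT1-KO, 0.984%, became 0 with clusters named by markers outside the members and 0 at resolution 0.4, 3.89% (flox 0.492%) for an acinar-like cluster found with all variable genes, 0.548% at a cut of 50% and 0.806% at 1000 UMIs. Their secreted ratio, 1.06, became 0.338 in that cluster, where the direction turned, 1.27 at 50%, 1.11 at 1000 UMIs and 1.14 over the UMIs of other genes. The median ratio of the named classes, 21.6, became 26.9 without the cells with high doublet scores. The count of members past 2-fold in near-empty barcodes, 29 of 29 (2.00% of all genes), was 31 of 31 (3.6%) at a minimum of 20 UMIs and 27 of 27 (1.0%) at 200, and in kept cells 29 of 30 (2.83%) became 29 of 32 (4.19%) and 27 of 27 (1.5%). Under the other settings these were 29 of 29 and 28 to 29 of 30.

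No paired analysis was possible because there is 1 library per group, and for the same reason no library was left out. The 2 settings without an acinar-like cluster give no ratio in it, and no class ratio was given without the upper gene limit, where the added barcodes have no class. Factor counts of 0 to 60 UMIs per gene and class limit every statement on the factors.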

Other observations

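In near-empty barcodes 62 of the 12925 genes with enough UMIs were at least 10-fold higher in MCT1-KO, and 28 of the 29 members with enough UMIs. Of the 62, 28 were thus members and 34 were not. Among the latter were 5 genes of the list of other acinar genes, the receptor Cckar and 5 Reg genes, which encode secreted lectins of the exocrine pancreas. Reg2 stood at 23.7 CPM in flox and 892 CPM in MCT1-KO, Reg3b at 27.3 and 536 CPM and Reg1 at 16.9 and 379.5 CPM. There were also 3 adipocyte markers: Cfd, which encodes adipsin, had 11 UMIs in flox and 1975 in MCT1-KO, and Adipoq and Cidec had none in flox. Ighg3, an immunoglobulin heavy chain gene, had 12 and 980 UMIs. These genes were chosen after their values were seen.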
